A study of Mus musculus with 6 samples.

Results

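The genes of the mouse major histocompatibility complex (MHC), which carry the prefix H2-, and the genes of antigen processing were examined in hypoxic mouse kidney. They were taken from the count table as the protein-coding rows whose name starts with H2- or is B2m, Tap1, Tap2, Tapbp, Psmb8, Psmb9, Psmb10, Nlrc5, Ciita or Erap1. That gave 44 of 54532 named genes, of which 34 had an H2- name and 39 lie on chromosome 17 (GRCm38). By name, 24 were class I heavy chains and 9 class II chains. H2-Ke6, which encodes a steroid dehydrogenase in spite of its name, belongs to neither class. The study compared 3 kidney libraries labelled Lpar3-/-, from mice described as deficient for the lysophosphatidic acid receptor LPAR3, with 3 WT libraries. Mice of both genotypes had spent 12 h in a normobaric chamber at 8% oxygen before the kidneys were taken. Strain, MHC haplotype, age and sex are not stated in the labels. They also leave unsaid whether each library came from its own animal, and the p-values then cover only the spread between libraries, which could be technical.

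Class I molecules consist of a heavy chain and the light chain B2m and show peptides from inside the cell to CD8 T cells. The peptides are cut by the proteasome, whose catalytic subunits can be exchanged for the interferon-inducible Psmb8, Psmb9 and Psmb10, pumped into the endoplasmic reticulum by Tap1 and Tap2, loaded with the help of Tapbp and trimmed by Erap1. Class II molecules pair an alpha with a beta chain and show peptides from endocytosed proteins to CD4 T cells. Almost every nucleated cell makes class I, whereas class II is made mainly by dendritic cells, macrophages and B cells, so that in a whole kidney class II transcripts come largely from few cells. Nlrc5 and Ciita are the transactivators of class I and class II genes.

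The promoters of the main genes are shown because genes of a class share regulatory elements there. Sequences are from RefSeq (GRCm38.p6), whose table of 300-base promoter windows held 38 of the 44 genes and was searched on both strands for 5 motifs. Capitals mark every match. GGGATTCCC is a site of NF-kappa-B and TTTCACTTC a core of the interferon-stimulated response element. AGCAACNGA is the start of the X box, a binding site of RFX, with letters taken from the H2-Eb1 promoter itself. TGATTGG has the letters of the Y box, which NF-Y binds, and the shorter ATTGG lies within it. In the class I promoters shown it was matched as its reverse complement, CCAATCA, and whether that stretch acts as a Y box was not tested.
H2-K1, chr17:34000321-34000469, minus strand: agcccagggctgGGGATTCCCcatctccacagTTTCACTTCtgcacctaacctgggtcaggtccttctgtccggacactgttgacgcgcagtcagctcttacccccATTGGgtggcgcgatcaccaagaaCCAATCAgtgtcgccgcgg
H2-D1, chr17:35262912-35263059, plus strand: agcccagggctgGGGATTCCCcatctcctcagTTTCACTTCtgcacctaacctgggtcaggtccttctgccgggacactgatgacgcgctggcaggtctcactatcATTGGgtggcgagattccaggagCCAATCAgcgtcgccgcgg
H2-Q4, chr17:35379452-35379580, plus strand: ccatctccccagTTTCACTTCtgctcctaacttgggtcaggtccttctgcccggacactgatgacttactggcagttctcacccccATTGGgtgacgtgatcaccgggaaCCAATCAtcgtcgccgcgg
H2-Q6, chr17:35424666-35424813, plus strand: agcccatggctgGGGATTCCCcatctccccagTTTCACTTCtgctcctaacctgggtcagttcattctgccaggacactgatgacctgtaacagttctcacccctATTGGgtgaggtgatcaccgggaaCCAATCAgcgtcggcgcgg
H2-T23, chr17:36032735-36032765, minus strand: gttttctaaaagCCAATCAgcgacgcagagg
H2-Aa, chr17:34287855-34287885, minus strand: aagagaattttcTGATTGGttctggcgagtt
H2-Eb1, chr17:34305763-34305848, plus strand: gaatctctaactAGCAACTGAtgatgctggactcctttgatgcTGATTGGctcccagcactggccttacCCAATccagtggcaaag

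GGGATTCCC was present in the windows of H2-K1, H2-D1, H2-Q6 and the scarcely expressed H2-Q7, and in 0.353% of all 32851 windows. TTTCACTTC was found in 5 of the 7 tested class I genes with a window, namely H2-K1, H2-D1, H2-Q4, H2-Q6 and H2-M3 but not H2-T22 or H2-T23, as well as in H2-Q7 and H2-Q10, against 0.505% of all windows. Neither motif was in the 5 tested class II genes with a window (H2-Aa, H2-Eb1, H2-DMa, H2-DMb1 and H2-DMb2). The letters TGATTGG, on either strand, stood in 6 of these 7 class I genes (not in H2-M3) and in 4 of the 5 class II genes (not in H2-DMa), against 7.82% of all windows. They were in 24 of the 38 genes with a window, among them H2-M10.1, H2-M10.3 and H2-M11, which had 0 counts. AGCAACNGA occurred in H2-Eb1, its source, and the scarcely expressed H2-Eb2, against 1.34% of all windows. ATTGG alone was in all 7 and all 5, but also in 37.4% of all windows. These are matches of letters, and binding was not measured. The windows are those of the reference genome, which is of the strain C57BL/6J. The strain and MHC haplotype of these mice are not stated, so their own promoters may differ.

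Total counts ran from 16032392 to 17789664 in the libraries labelled Lpar3-/- and from 16011804 to 17991881 in WT. Of the counts in named genes, the 44 genes took 0.0806% to 0.0934% in the libraries labelled Lpar3-/- and 0.0968% to 0.134% in WT. The 8 markers of kidney epithelium had a summed level of 9054 to 9486 CPM (counts scaled to library size with TMM factors) in the libraries labelled Lpar3-/- and 8424 to 8734 CPM in WT. These ranges did not overlap. Slc12a1 (1366, 1427 and 1494 against 1099, 1007 and 1154 CPM in WT) and Umod (2581, 2506 and 2675 against 2502, 2212 and 2312) lay above WT. They were 2 of the 8, and 1, Nphs1, lay below WT, against 6.58% and 7.12% of all tested genes. The count of Lpar3 itself did not set the labels apart, with 672, 592 and 580 counts in the libraries labelled Lpar3-/- and 645, 634 and 577 in WT. Directions below therefore rest on the labels. WT replicate 2 stood apart for these genes, with the highest CPM of the 6 libraries at 22 of the 25 tested members, whereas it was highest at 21.8% of all tested genes.

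Per length, the genes differed widely in level. B2m was the most abundant, with a mean of 287 FPKM over the 6 libraries, a level above 99.2% of tested genes. H2-D1, a classical class I heavy chain, followed with 94.9 FPKM, then H2-T23 (Qa-1, the ligand of the inhibitory receptor CD94/NKG2A on natural killer cells) with 33.4 FPKM and Tapbp with 24.3 FPKM. The class II chains H2-Eb1, H2-Ab1 and H2-Aa had 21.2, 17.6 and 15.4 FPKM, close to the other classical heavy chain, H2-K1, at 16.9 FPKM. The ranges over libraries of H2-Eb1 (14.8 to 43.0 FPKM), H2-Ab1 (13.3 to 32.3), H2-K1 (12.8 to 20.3) and H2-Aa (9.78 to 28.8) overlapped. Within every library, however, H2-Eb1 was above H2-Ab1 and H2-Ab1 above H2-Aa, while the place of H2-K1 among them varied. Ciita and Nlrc5 were at the low end, with 0.501 and 0.291 FPKM.

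**Figure D1:**
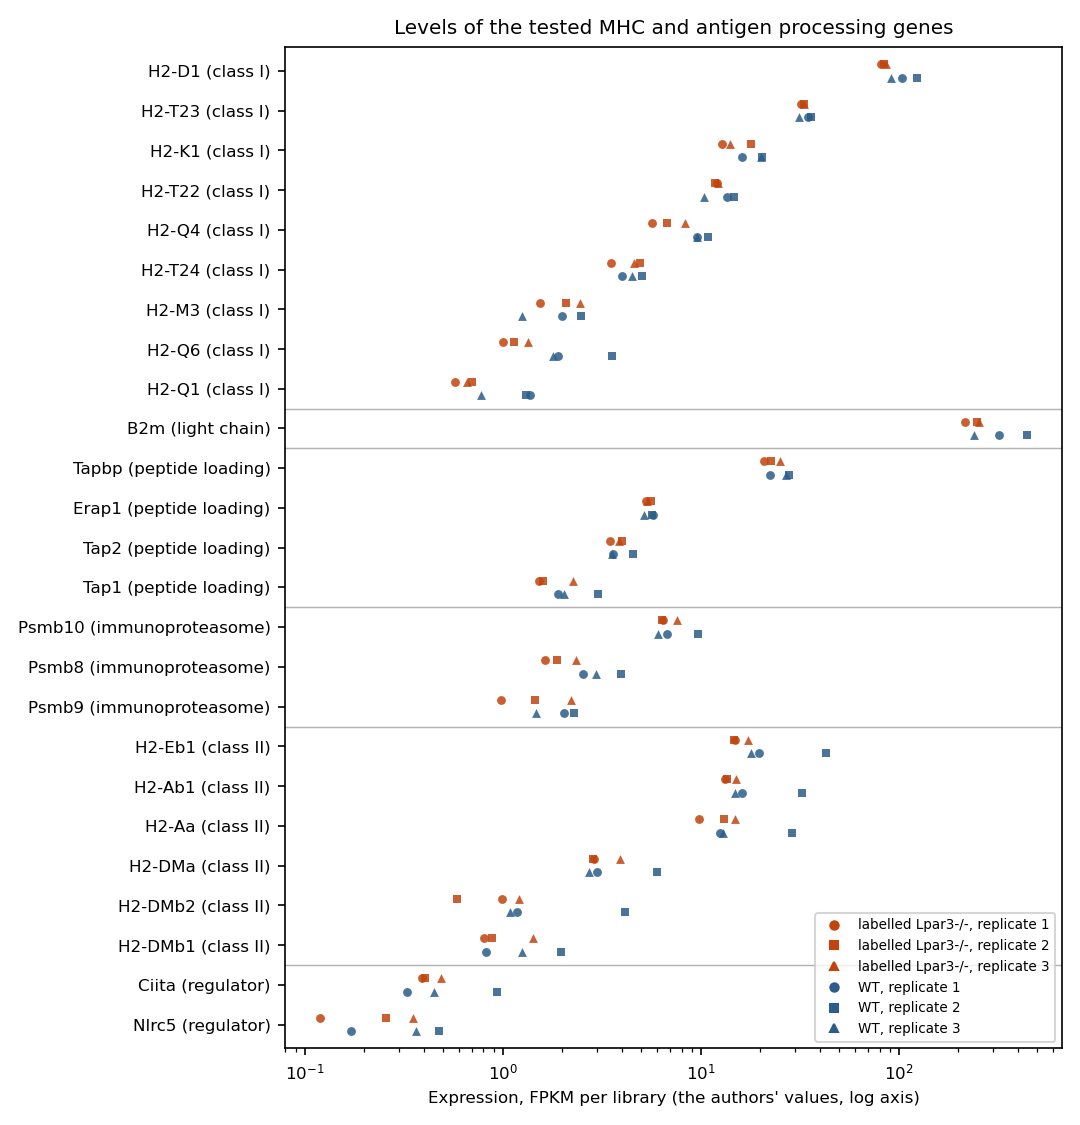
Expression of each tested gene in FPKM on a log axis, 1 symbol per library, with the libraries labelled Lpar3-/- above WT in each row. B2m (287 FPKM on average) and H2-D1 (94.9 FPKM) lead, and at every class II gene the WT square, replicate 2, lies to the right of the other 5 libraries.

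Class I expression came mostly from a few genes. H2-D1 made up 51.7% to 56.3% of the summed class I FPKM in the 6 libraries, H2-T23 16.5% to 21.1% and H2-K1 8.49% to 11.8%. These shares depend on how reads matching several class I genes, or from alleles unlike the reference, were counted, which is not stated. Of the 24 class I genes, 9 passed the expression filter. H2-Q2 (6 to 11 counts per library), H2-Q10 (3 to 13) and H2-Q7 (0 to 10) did not, nor did H2-M2 (at most 8 counts), H2-M10.5 (at most 5), H2-M1 (at most 2), or H2-M5, H2-T3, H2-M10.2 and H2-M9 (at most 1 each). H2-M10.1, H2-M10.3, H2-M10.4, H2-M10.6 and H2-M11 had 0 counts in every library, which allows up to 0.169 to 0.189 CPM in a library (3 counts). Several of the H2-M10 genes are known from vomeronasal neurons. Of the class II genes, H2-Ob (1 to 9 counts) and H2-Oa (0 to 3), the chains of the DM inhibitor H2-O that B cells express, and H2-Eb2 (0 to 2) did not pass. H2-Ke6 had 0 counts, and 70.5% of its 50-base stretches also occur in transcripts of another gene.

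No MHC or antigen processing gene passed edgeR's test after adjustment over all genes. Of the 44 genes 25 were tested, and 19 did not pass the filter on low counts, 6 of them with 0 counts throughout. EdgeR's quasi-likelihood test with Benjamini-Hochberg adjustment called 0 of the 25 tested genes (0.374% of all 15225 tested genes were called, and 0.250% were called and lower), limma-voom called 0 (0.361% of all) and DESeq2 called 1, H2-Q4 (1.10% of all). The lowest edgeR adjusted p was 0.144, for H2-Q4. At an unadjusted p under 0.05, 10 of the 25 were lower and 0 higher in the libraries labelled Lpar3-/-, against 5.21% and 3.97% of all tested genes. The count of 10 was 6 without Lpar3-/- replicate 1 and 6 in both limma fits on FPKM. Negative log2 fold changes (labelled Lpar3-/- over WT) were found for 24 of the 25, against 51.1% of all tested genes, with a median of -0.37 against -0.0036. The 25 genes are not independent of each other. Without an expression filter, edgeR called 10 of them and 520 genes in all, against 57 in all with the filter. The share of all genes called in that unfiltered fit was not computed, so its 10 members have no background to be set against.

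The classical class I genes H2-D1 and H2-K1 were 1.26-fold and 1.27-fold lower in the libraries labelled Lpar3-/-, and neither passed the test over all genes. H2-D1 (chromosome 17, 35262730 to 35267499, plus strand) had 211, 220 and 225 CPM in the libraries labelled Lpar3-/-, against 269, 319 and 237 CPM in WT. Its groups did not overlap, with a log2 fold change of -0.33 (SE 0.098, edgeR adjusted p = 0.266) whose 95% interval ran from -0.55 to -0.12. H2-K1 (33996017 to 34000333, minus strand) had 33.6, 47.2 and 36.8 CPM under the Lpar3-/- label, against 42.5, 53.3 and 53.4 CPM in WT, and replicate 2 labelled Lpar3-/- exceeded WT replicate 1. Its log2 fold change was -0.35 (SE 0.13, edgeR adjusted p = 0.392).

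Of the 6 H2-Q genes, nonclassical class I genes of the Qa region, 3 were tested. These 3 showed the lowest log2 fold changes among the tested class I genes. The pseudogene row H2-Q5, outside the set, overlapped between the labels. It had 18, 30 and 47 counts in the libraries labelled Lpar3-/-, against 40, 46 and 31 in WT (log2 fold change -0.28, edgeR adjusted p = 0.878). H2-Q4, which encodes Qb-1, had 14.8, 17.7 and 21.9 CPM in the libraries labelled Lpar3-/-, against 25.2, 28.5 and 25.1 CPM in WT. All 3 lay below WT, with a log2 fold change of -0.53 (SE 0.13, 95% interval -0.82 to -0.24, edgeR adjusted p = 0.144, DESeq2 adjusted p = 0.0453). Exons of H2-Q4 overlap the antisense gene Gm11131 over 496 bases, where counts made without strand cannot tell the 2 apart. H2-Q6 had 2.11, 2.39 and 2.83 CPM under the Lpar3-/- label, against 4.01, 7.51 and 3.81 CPM in WT, a log2 fold change of -1.06 (SE 0.29, edgeR adjusted p = 0.208) on 37 to 49 counts in the libraries labelled Lpar3-/- and 63 to 127 in WT. H2-Q1 had 1.65, 2.02 and 1.91 CPM under the Lpar3-/- label, against 3.95, 3.79 and 2.24 CPM in WT, a log2 fold change of -0.84 (SE 0.28, edgeR adjusted p = 0.347). In each of these 3 genes the groups did not overlap, and so they did not in H2-D1, H2-Eb1 and Psmb8, which makes 6 of the 25, against 7.12% of all tested genes with the libraries labelled Lpar3-/- below WT. The opposite order was seen in 0 of the 25, against 6.58% of all tested genes.

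The H2-T genes had log2 fold changes near 0, and none passed the test. H2-T23 had 92.5, 96.1 and 96.5 CPM in the libraries labelled Lpar3-/-, against 102, 105 and 91.1 CPM in WT, with a log2 fold change of -0.064 and a 95% interval of -0.22 to 0.092 (edgeR adjusted p = 0.863). H2-T22, a ligand of gamma-delta T cells, averaged 41.3 ± 0.853 CPM under the Lpar3-/- label against 44.5 ± 7.55 CPM in WT (SD, n = 3 each; log2 fold change -0.11), and H2-T24 averaged 9.59 ± 1.68 CPM under the Lpar3-/- label against 9.99 ± 1.13 CPM in WT (log2 fold change -0.061). H2-M3, which presents formylated bacterial peptides, averaged 2.94 ± 0.685 CPM under the Lpar3-/- label against 2.77 ± 0.903 CPM in WT and had the only positive log2 fold change, 0.086 (95% interval -0.56 to 0.73). The log2 ratio of the summed H2-Q to the summed H2-T level was -2.84, -2.65 and -2.41 in the libraries labelled Lpar3-/-, against -2.19, -2.02 and -2.08 in WT, so the groups did not overlap. This ratio was picked after the values were seen and is given with no test.

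Class I genes resemble each other, and how reads matching several genes were counted is not given in the sources used. Over GENCODE M21 transcripts, the share of 50-base stretches that also occur in another gene was 12.8% for H2-D1, 9.63% for H2-K1, 21.8% for H2-Q4, 32.0% for H2-Q6, 15.0% for H2-Q1, 13.6% for H2-T23 and 34.5% for H2-T22. Among class II genes it was 22.7% for H2-DMb1 and 24.8% for H2-DMb2, which share them with each other, and 0% for H2-Ab1 and H2-Eb1. The split of counts among H2-K1, H2-D1 and the H2-Q genes is therefore uncertain, as is that between H2-DMb1 and H2-DMb2. The sum of H2-K1 and H2-D1 was 244, 267 and 262 CPM in the libraries labelled Lpar3-/-, against 311, 373 and 291 CPM in WT. It does not depend on how counted reads were divided between them. It still depends on whether reads matching several genes were dropped, and on stretches shared with other class I genes.

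B2m, the light chain of all class I molecules and of several class I-like proteins, had 187, 216 and 220 CPM in the libraries labelled Lpar3-/-, against 279, 383 and 208 CPM in WT. WT replicate 3 lay within the other group. The B2m log2 fold change was -0.48 (SE 0.17, edgeR adjusted p = 0.364), and -0.23 without WT replicate 2.

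Of the immunoproteasome subunits, Psmb8 had 4.50, 5.16 and 6.47 CPM in the libraries labelled Lpar3-/-, against 7.00, 11.0 and 8.17 CPM in WT, without overlap (log2 fold change -0.69, SE 0.20, edgeR adjusted p = 0.267). Psmb9 had 3.59, 5.35 and 8.21 CPM under the Lpar3-/- label, against 7.51, 8.46 and 5.44 CPM in WT, and Psmb10 had 11.1, 11.0 and 13.1 CPM under the Lpar3-/- label, against 11.6, 16.7 and 10.5 CPM in WT. Their groups overlapped, with log2 fold changes of -0.32 and -0.14 (edgeR adjusted p = 0.803 and 0.872). Psmb8 has exons that overlap the antisense gene Gm20496 over 498 bases, and Psmb9 and Tap1, on opposite strands, share 212 exonic bases. In counts made without strand these genes cannot be told apart there. The same holds for H2-T22 (A930015D03Rik, 1003 bases), Tapbp (Gm19412, 904), Erap1 (Cast, 834) and Tap2 (Gm15821, 533). It also holds for H2-DMa (Brd2, 360), Ciita (Dexi, 329) and Nlrc5 (9330175E14Rik, 78), besides H2-Q4.

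Peptide transport and loading genes did not separate the labels. Tap1 had 8.37, 8.82 and 12.5 CPM in the libraries labelled Lpar3-/-, against 10.6, 16.6 and 11.3 CPM in WT (log2 fold change -0.37, edgeR adjusted p = 0.641). Its partner Tap2 had 13.2, 15.2 and 14.7 CPM under the Lpar3-/- label, against 13.7, 17.3 and 13.7 CPM in WT (log2 fold change -0.053, 95% interval -0.33 to 0.23). Tapbp, the bridge between the transporter and class I, had 69.0, 75.3 and 83.2 CPM under the Lpar3-/- label, against 74.8, 92.5 and 89.6 CPM in WT (log2 fold change -0.17). Erap1 had 38.6, 41.2 and 39.5 CPM under the Lpar3-/- label, against 42.3, 41.6 and 38.1 CPM in WT, with overlapping groups, and the 95% interval of its log2 fold change ran from -0.20 to 0.13.

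For class II, the median log2 fold change was -0.56 over the 6 tested genes, and this value rested on WT replicate 2. H2-Aa had 18.4, 24.8 and 28.3 CPM in the libraries labelled Lpar3-/-, against 23.6, 54.4 and 24.6 CPM in WT. H2-Ab1, the beta chain of the same molecule, had 21.8, 22.4 and 25.0 CPM under the Lpar3-/- label, against 26.6, 53.2 and 24.7 CPM in WT. H2-Eb1 had 17.8, 17.6 and 20.6 CPM under the Lpar3-/- label, against 23.5, 51.2 and 21.4 CPM in WT, and was the only class II gene whose groups did not overlap. In all 3, WT replicate 2 lay far above the other 5 libraries. The log2 fold changes were -0.52, -0.60 and -0.78 (SE 0.27, 0.23 and 0.26, edgeR adjusted p = 0.620, 0.437 and 0.350), and -0.017, -0.15 and -0.27 without WT replicate 2.

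The H2-DM genes, whose products exchange peptides on class II, also had their highest level in WT replicate 2. H2-DMb2 had 1.71, 1.01 and 2.08 CPM in the libraries labelled Lpar3-/-, against 2.03, 7.10 and 1.88 CPM in WT (log2 fold change -1.19, SE 0.49, edgeR adjusted p = 0.488). H2-DMa averaged 5.33 ± 0.993 CPM under the Lpar3-/- label against 6.48 ± 3.00 CPM in WT and H2-DMb1 1.55 ± 0.512 CPM under the Lpar3-/- label against 2.03 ± 0.868 CPM in WT (SD, n = 3 each), with log2 fold changes of -0.28 and -0.38. At each of the 6 class II genes WT replicate 2 was highest, and without it their median log2 fold change was -0.086. Ciita, the master regulator of class II, had 3.76, 3.91 and 4.68 CPM under the Lpar3-/- label, against 3.16, 8.99 and 4.36 CPM in WT (log2 fold change -0.42, edgeR adjusted p = 0.782). Nlrc5, its class I counterpart, had 1.03, 2.20 and 3.01 CPM under the Lpar3-/- label, against 1.47, 4.08 and 3.15 CPM in WT (log2 fold change -0.48, edgeR adjusted p = 0.815).

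Class I and class II thus differed in how their difference was spread over libraries. The summed class I level was 408, 441 and 442 CPM in the libraries labelled Lpar3-/-, against 506, 585 and 462 CPM in WT, with no overlap. The summed class II level was 66.1, 72.1 and 84.9 CPM under the Lpar3-/- label, against 82.4, 180 and 79.1 CPM in WT, where replicate 3 labelled Lpar3-/- lay above WT replicates 1 and 3. The log2 ratio of the group means was -0.27 for class I and -0.17 without WT replicate 2, and -0.61 for class II and -0.12 without it. The log2 ratio of class II to class I per library was -2.63, -2.61 and -2.38 in the libraries labelled Lpar3-/-, against -2.62, -1.70 and -2.55 in WT, so WT replicate 2 alone stood out. Sums over chosen genes are described here and were not tested.

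**Figure D2:**
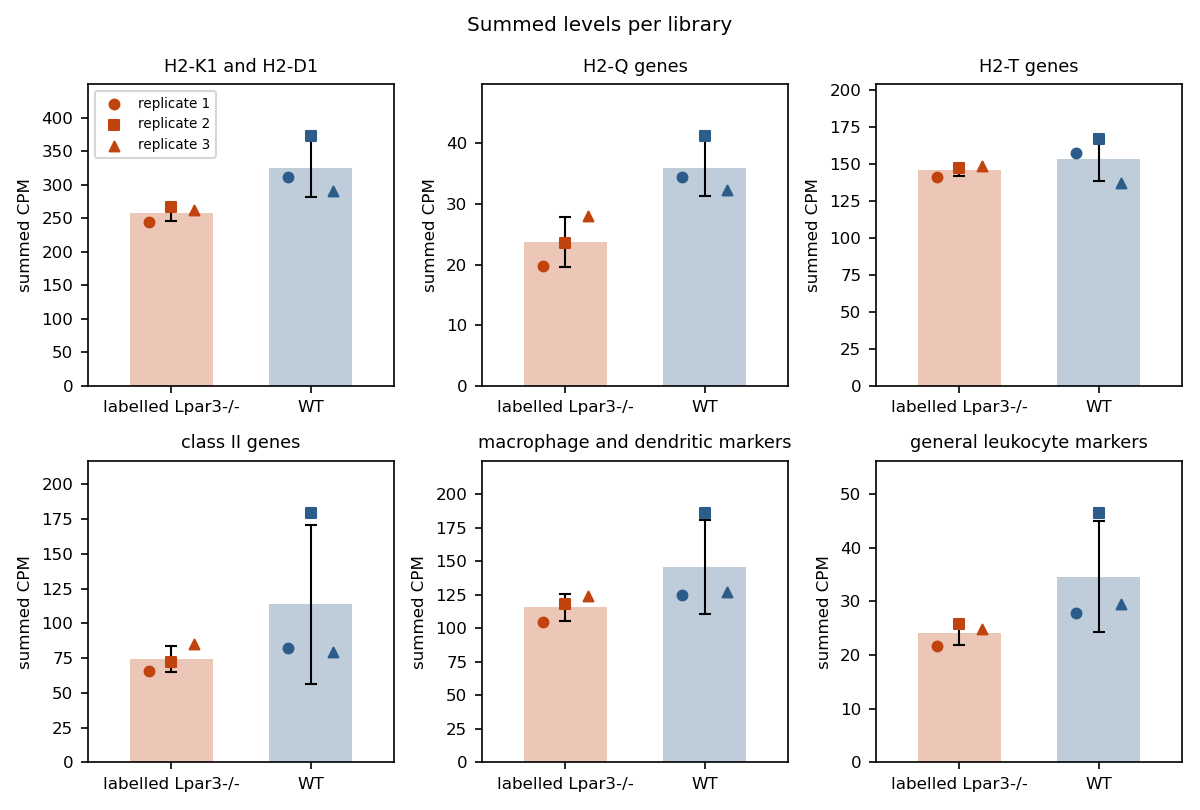
Summed CPM per library for 3 sets of class I genes, the class II genes and 2 sets of leukocyte markers, with bars for group means and error bars for SD (n = 3). The H2-Q sums are 19.8 to 28.0 CPM in the libraries labelled Lpar3-/- and 32.4 to 41.2 CPM in WT, whereas the class II bar of WT is raised by replicate 2 (180 CPM).

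General leukocyte markers and most macrophage and dendritic cell markers were also highest in WT replicate 2, at 5 of 5 and 10 of 11 tested genes. So were 2 of 2 tested T and natural killer cell markers. Only 1 of the 6 B cell markers, Cd79b, had enough counts to be tested, and it was not highest there. The 5 general leukocyte markers summed to 21.7, 25.8 and 24.8 CPM in the libraries labelled Lpar3-/-, against 27.9, 46.5 and 29.5 CPM in WT, and the 14 macrophage and dendritic cell markers to 105 to 124 CPM under the Lpar3-/- label, against 125, 186 and 127 CPM in WT. All 5 and 10 of 11 tested had negative log2 fold changes, against 51.1% of all tested genes, with medians of -0.51 and -0.52. EdgeR called 0 in either set, and 2 and 3 were lower at an unadjusted p under 0.05, against 5.21% of all tested genes. The 9 T and natural killer cell markers summed to 2.22 to 3.47 CPM under the Lpar3-/- label, against 2.99, 10.1 and 4.66 CPM in WT, and the 6 B cell markers to 1.14 to 2.83 CPM under the Lpar3-/- label, against 1.81 to 2.48 CPM in WT. Ptprc (CD45), found on all leukocytes, had 5.70, 6.30 and 6.70 CPM under the Lpar3-/- label, against 8.41, 12.0 and 9.19 CPM in WT, and C1qa, a complement gene of macrophages, had 10.7, 11.3 and 11.3 CPM under the Lpar3-/- label, against 16.1, 19.0 and 13.7 CPM in WT. Neither overlapped (edgeR adjusted p = 0.168 and 0.138), so unlike most class II genes they separated the labels in every WT library. Both had the lowest p of their list, and 2 of 5 and 3 of 11 tested markers did not overlap, against 7.12% of all tested genes. Csf1r, the macrophage marker with the highest CPM, overlapped. It had 48.6, 49.1 and 50.7 CPM under the Lpar3-/- label, against 44.7, 53.8 and 54.7 CPM in WT (log2 fold change -0.045, edgeR adjusted p = 0.931). Clec9a, a dendritic cell marker, had the only positive log2 fold change of that list, 0.051. The sums of both sets did not overlap in CPM, narrowly for macrophages and dendritic cells (124.4 against 124.6 CPM), but overlapped in FPKM. Without WT replicate 2 the log2 ratio of the summed CPM went from -0.52 to -0.25 for general leukocyte markers and from -0.33 to -0.12 for macrophage and dendritic cell markers. B cell markers ranged from Pax5, with at most 4 counts in a library, to Cd79b, with 11 to 32. T and natural killer cell markers ranged from Ncr1, with at most 7 counts, to Cd8a, with 9 to 40, and Cd4 had 6 to 25 counts, without overlap between the labels (edgeR adjusted p = 0.405). The 5 endothelial markers summed to 266 to 312 CPM under the Lpar3-/- label, against 291 to 297 CPM in WT, with a median log2 fold change of -0.030. The 5 adipocyte markers summed to 18.9, 54.0 and 19.6 CPM under the Lpar3-/- label, against 134, 114 and 62.8 CPM in WT, which separated the labels. Of these 5, 4 were lower at an unadjusted p under 0.05 (5.21% of all tested genes), 0 were called by edgeR and 2 by DESeq2 (1.10% of all). The part of these cell types in the MHC values was not tested, and in bulk tissue fewer cells of a type and less RNA per cell cannot be told apart.

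Leaving out libraries changed the sizes and some of the unadjusted calls. Without WT replicate 2, 7 of the 25 genes had an unadjusted p under 0.05 and were lower in the libraries labelled Lpar3-/-, against 4.71% of all tested genes in that fit, namely H2-D1, H2-K1, H2-Q1, H2-Q4, H2-Q6, Psmb8 and H2-Eb1. Their log2 fold changes were then -0.21, -0.29, -0.74, -0.47, -0.68, -0.49 and -0.27, so that those of H2-D1 (-0.33 with all 6 libraries) and H2-Q6 (-1.06) shrank by over 1.5 times, and that of H2-Eb1 (-0.78) more. H2-K1 missed an unadjusted p of 0.05 without Lpar3-/- replicate 1, Lpar3-/- replicate 3 or WT replicate 3 in edgeR, and H2-Q1 without WT replicate 1. H2-D1, H2-Q4, H2-Q6, Psmb8 and H2-Eb1 stayed under it in all 6 of these edgeR fits. After adjustment, edgeR called 0 of the 25 in each of the 6 fits.

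**Figure D3:**
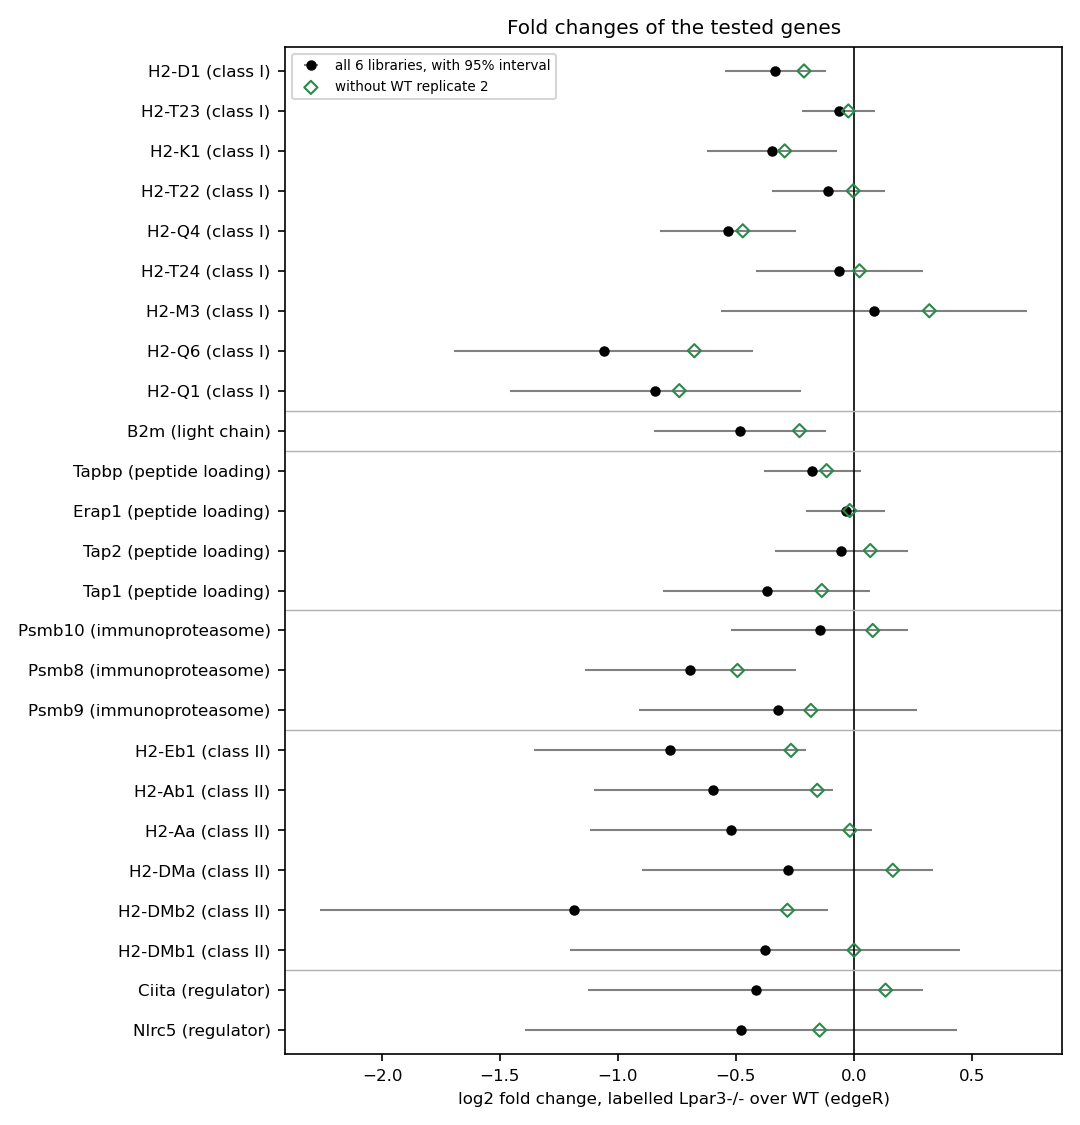
Log2 fold change of each tested gene, labelled Lpar3-/- over WT, from all 6 libraries with its 95% interval (filled points) and without WT replicate 2 (open diamonds). The diamonds of the class II genes move to between -0.28 and 0.17, while those of H2-Q1, H2-Q4 and H2-Q6 stay at -0.47 or below.

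**Figure D4:**
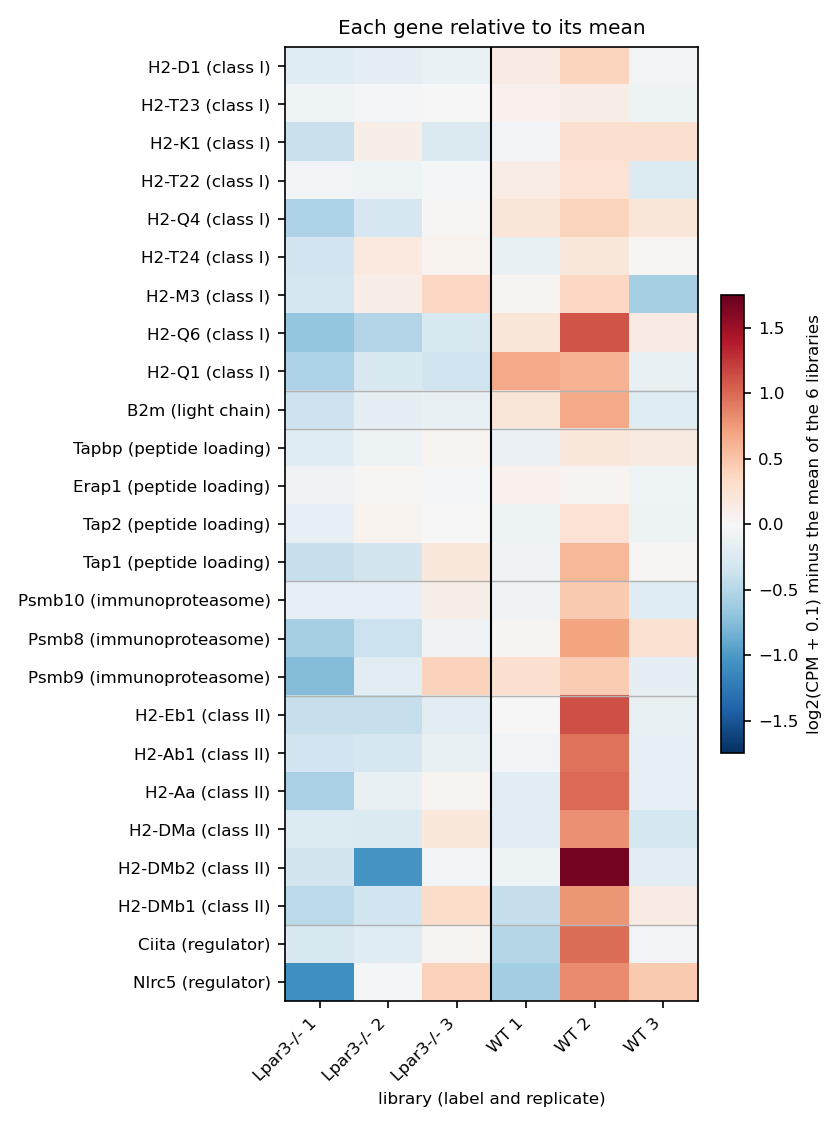
Each tested gene in each library as log2(CPM + 0.1) minus its mean over the 6 libraries, with the libraries labelled Lpar3-/- left of WT. The column of WT replicate 2 lies above the mean at all 25 genes, by up to 1.67 at H2-DMb2, while WT replicate 1 is below the mean at Ciita (-0.50) and above it at H2-Q1 (0.67).

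Other genes of the pathway were read from lists. Of 11 genes for proteasome subunits, chaperones and peptidases that serve class I, edgeR called 0, with 0 at an unadjusted p under 0.05 and a median log2 fold change of 0.018. The lowest p was at Psmb7, a constitutive proteasome subunit (80.3 ± 3.32 CPM under the Lpar3-/- label against 73.5 ± 4.36 CPM in WT), followed by Psme1, a subunit of the interferon-inducible proteasome activator (56.8 ± 1.92 CPM under the Lpar3-/- label against 53.5 ± 3.21 CPM in WT; SD, n = 3 each). Among 8 class II pathway genes 0 were called and 2 were lower at an unadjusted p under 0.05, against 5.21% of all tested genes. Cd74, the invariant chain that escorts class II, had 123, 132 and 143 CPM under the Lpar3-/- label, against 139, 345 and 149 CPM in WT (log2 fold change -0.67, SE 0.27, edgeR adjusted p = 0.456), the same high WT replicate 2 as the class II chains. Ctss, the protease that degrades it, averaged 8.90 ± 0.869 CPM under the Lpar3-/- label against 12.4 ± 4.20 CPM in WT.

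Regulators, interferon-stimulated genes and class I-like genes were read in the same way. Among 14 regulators of MHC genes and interferon-gamma signalling edgeR made 0 calls. A single gene was lower at an unadjusted p under 0.05 (7.14%, against 5.21% of all tested genes). It was Irf8, a transcription factor of macrophages and dendritic cells (20.9 ± 1.36 CPM under the Lpar3-/- label against 25.3 ± 3.26 CPM in WT). Next came Rfx5, a subunit of the X box factor, with 12.6, 12.0 and 13.7 CPM under the Lpar3-/- label against 15.4, 14.3 and 15.7 CPM in WT (log2 fold change -0.24, edgeR adjusted p = 0.560). Of 12 interferon-stimulated genes 0 were called, and 4 had an unadjusted p under 0.05 and were lower, against 5.21% of all tested genes. The median log2 fold change was -0.35, against -0.0036 over all tested genes. WT replicate 2 was highest at 7 of the 12, and the log2 ratio of their summed CPM was -0.28, or -0.11 without that library. Irgm1, an interferon-gamma-induced GTPase, had 36.1, 43.2 and 42.0 CPM under the Lpar3-/- label against 43.9, 62.8 and 45.7 CPM in WT, and Gbp3 5.78 ± 0.809 CPM under the Lpar3-/- label against 10.2 ± 5.44 CPM in WT. Of 6 class I-like genes 5 were tested and 0 called. Cd1d1, which presents lipids to natural killer T cells, had 1.08, 1.83 and 1.27 CPM under the Lpar3-/- label, against 2.77, 2.37 and 2.84 CPM in WT, without overlap (log2 fold change -0.93, SE 0.30, edgeR adjusted p = 0.303), whereas Mr1, which presents vitamin B metabolites, averaged 9.46 ± 0.791 CPM under the Lpar3-/- label against 8.62 ± 1.08 CPM in WT.

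A row outside the protein-coding genes is given for comparison with the class II chains. H2-Ea-ps, the locus of the class II E alpha chain (34342933 to 34344643, minus strand), is annotated as an unprocessed pseudogene on this build, which is of the strain C57BL/6J. That strain is known to carry a deletion of the E alpha promoter and to make no E alpha transcript. Here the row had 398, 374 and 533 counts in the libraries labelled Lpar3-/-, against 504, 1140 and 437 in WT, or 37.2 ± 6.37 FPKM under the Lpar3-/- label against 59.0 ± 33.6 FPKM in WT, more per length than H2-Eb1 (15.7 ± 1.36 FPKM under the Lpar3-/- label against 26.8 ± 14.0 FPKM in WT; SD, n = 3 each). None of its 50-base stretches occurs in another gene (0%). Reads were thus counted at this locus in all 6 libraries, again with WT replicate 2 highest (log2 fold change -0.67, SE 0.29, edgeR adjusted p = 0.516). MHC genes differ between haplotypes, and how reads from alleles unlike the reference were counted at H2-K1, H2-D1 and the H2-Q genes was not tested.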

How the data were processed

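Kidney RNA of hypoxic mice was sequenced in 6 libraries, 3 labelled Lpar3-/- and 3 WT, with groups and replicate numbers taken from sample titles. The count table deposited by the authors holds unnormalized whole numbers. The submitters' processing notes name GRCm38 as the build and, as tools, DESeq2 1.20.0, featureCounts 1.5.0-p3 and HISAT2 2.0.5. Strand setting, annotation release and treatment of reads matching several genes are unstated. The FPKM values are those the authors deposited. Of 54909 rows, 377 had no gene name (0.259% to 0.362% of counts) and were left out. The main test was the quasi-likelihood test (edgeR 4.0.16, R 4.3.3) with TMM, the default filter and Benjamini-Hochberg adjustment over 15225 genes, called under an adjusted p of 0.05; log2 fold changes are labelled Lpar3-/- over WT, and the replicates' coefficient of variation was 10.5%. Pairs of libraries differed beyond sampling noise (chi-square per degree of freedom 4.21 to 16.0). Alternatives were DESeq2 1.42.0, limma 3.58.1 (voom, or log2 of FPKM plus 1 or 0.1 with a mean FPKM of at least 0.1), RLE and upper-quartile scaling, no or a stricter filter, a replicate block and each library left out. Every gene of the set was described, with values per library for the classical chains, B2m, the processing genes, the regulators and any member with an unadjusted p under 0.05, and of each pathway list Cd74 and the 2 lowest p. Members, lists, markers and motifs were chosen with earlier results of these data known. The tests were first run on simulated data.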

Additional observations from a re-analysis of the deposited data

How the results depend on the processing

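The count of 0 called members held in edgeR with RLE or upper-quartile scaling, the stricter filter (mean CPM of 1 or more, and 10 counts in 3 libraries), the replicate block and each library left out, and in limma-voom and both limma fits on FPKM. It was 1 with DESeq2 and 10 without a filter, where the share over all genes was not computed, and the cause was not tested. The 10 members lower at an unadjusted p under 0.05 became 6 to 13 with a library left out (6 without Lpar3-/- replicate 1) and 6 in both limma fits on FPKM. Over all genes, 57 were called, against 520 without a filter, 173 with DESeq2, 9 and 13 with limma on log2(FPKM + 1) and log2(FPKM + 0.1), and 12 (without Lpar3-/- replicate 1 or 3) to 149 (without WT replicate 1) with a library left out. With a library left out, the summed log2 ratio ran from -0.34 to -0.17 for class I and from -0.81 to -0.12 for class II, the last without WT replicate 2. Signs turned for 7 uncalled genes, whose log2 fold changes then ranged from -0.16 to 0.077 for H2-T24 (above 0 without Lpar3-/- replicate 1 at 0.077 or WT replicate 2 at 0.024), from -0.11 to 0.070 for Tap2 (above 0 without the same libraries, at 0.0056 and 0.070), from -0.14 to 0.32 for H2-M3 (below 0 without Lpar3-/- replicate 3 at -0.080 or WT replicate 3 at -0.14) and, above 0 without WT replicate 2 alone, from -0.48 to 0.17 for H2-DMa, -0.68 to 0.00099 for H2-DMb1, -0.27 to 0.080 for Psmb10 and -0.70 to 0.13 for Ciita. Same-numbered libraries did not deviate together (r = -0.0072, -0.0029 and 0.043 across genes), and the replicate block called 80 genes and 0 members. Low counts, such as 37 to 49 for H2-Q6 in the libraries labelled Lpar3-/-, limit precision.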
